A study of Mus musculus with 12 samples.

Results

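Aquaporins are membrane channels that let water, and in some members glycerol or other small solutes, cross the cell membrane along a gradient. The mouse family falls into water channels (*Aqp1*, *Aqp2*, *Aqp4*, *Aqp5* and *Aqp8*), aquaglyceroporins that also pass glycerol (*Aqp3*, *Aqp7* and *Aqp9*) and the more distant, mainly intracellular *Aqp11*. The colon takes up water that follows absorbed salt, and several family members change in level along the length of the bowel. The 9 genes described here were chosen by name out of the 38924 genes in the count files, and all 9 were found. Their levels were compared between genotypes and with *Hoxb13*, a posterior Hox gene that marks the distal end of the hindgut.

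RNA of the proximal colon was sequenced from 12 mice, of which 6 were APC Min/+ and 6 were WT. All 12 were 6 week old female C57BL/6 mice, and no treatment is given in the labels. APC Min/+ mice carry 1 germ-line copy of the Min allele of *Apc* in every cell. The study examined them before intestinal tumors were visible, to ask what the mutation alters ahead of polyposis. Counts per gene do not separate the Min allele from the normal one, and *Apc* was counted at 192 ± 16.97 CPM in APC Min/+ mice and 186 ± 30.7 CPM in WT mice (mean ± SD, n = 6 each). The total count per mouse ranged from 81730206 to 197914821 (median 96605059) in APC Min/+ mice and from 50313805 to 117477400 (median 100161198) in WT mice. CPM is the count divided by the TMM-scaled library total and set to a common size, and 3 counts, taken as the lowest that can be read, correspond to between 0.0152 and 0.0596 CPM. The study's methods describe a section of the colon, and smooth muscle markers summed to between 3773 and 5721 CPM over the 12 mice. In a bulk sample such as this, fewer cells of a type and less RNA per cell cannot be told apart.

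2 APC Min/+ mice, M10_2 and M13_1, stood apart from the others before any aquaporin was considered. In M10_2 *Hoxb13* reached 378 CPM and in M13_1 it reached 275 CPM, while the highest of the other 10 mice had 0.744 CPM and 4 of them had no count. Of 9 posterior Hox genes, 5 were higher in both mice than in all 10 others, and 1, *Hoxc10*, was lower in both. The 2 mice parted on *Hoxd11* and *Hoxd10*, highest in M13_1 (45.6 and 29.35 CPM) and lowest in M10_2 (4.84 and 3.30 CPM). *Hoxa11* was inside the range of the others. Of all genes tested, 11.8% lay above the 10 others in both mice and 12.2% below. These *Hoxb13* levels go against the proximal label of M10_2 and M13_1, and since both mice are APC Min/+, genotype and position along the colon cannot be told apart in them. Epithelial markers (6 of 6 tested) summed to between 7132 and 12700 CPM over the 12 mice, which shows epithelium in each but not its position. Summed pancreatic acinar markers reached 9.34 CPM in APC Min/+ mouse M18_2b and 4.16 CPM in WT mouse M19_1, and at most 0.197 CPM elsewhere. Fold changes that rest on M10_2 and M13_1 are given with and without them, except for *Aqp12*.

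The most abundant members are shown by their promoters, so that the sequence around the RefSeq start of each gene can be read beside its level. The windows run from 250 bases before to 50 bases after the RefSeq start on GRCm38.p6, 5′ to 3′ on the gene's own strand. The capitals mark matches to TTTAT or its reverse complement ATAAA, the core that posterior Hox and Cdx proteins are known to bind in many sites, searched on both strands. The same letters also occur in a TATA box. Of all 32851 promoter windows of this length, 40.0% held a match. The *Aqp8* window is chr7:123462044-123462343 (forward strand), the *Aqp1* window chr6:55336049-55336348 (forward strand) and the *Aqp11* window chr7:97738198-97738497 (reverse strand).
Aqp8: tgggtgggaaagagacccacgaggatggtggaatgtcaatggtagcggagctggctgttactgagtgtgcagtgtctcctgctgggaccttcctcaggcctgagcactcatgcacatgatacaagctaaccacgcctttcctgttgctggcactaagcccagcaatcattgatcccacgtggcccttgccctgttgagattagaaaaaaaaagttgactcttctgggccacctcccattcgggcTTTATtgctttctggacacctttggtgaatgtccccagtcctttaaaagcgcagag
Aqp1: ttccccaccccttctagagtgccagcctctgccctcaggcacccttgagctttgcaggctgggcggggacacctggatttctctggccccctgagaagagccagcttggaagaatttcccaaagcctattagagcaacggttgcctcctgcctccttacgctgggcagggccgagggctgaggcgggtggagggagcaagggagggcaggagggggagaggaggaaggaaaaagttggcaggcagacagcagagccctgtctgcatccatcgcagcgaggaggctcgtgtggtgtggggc
Aqp11: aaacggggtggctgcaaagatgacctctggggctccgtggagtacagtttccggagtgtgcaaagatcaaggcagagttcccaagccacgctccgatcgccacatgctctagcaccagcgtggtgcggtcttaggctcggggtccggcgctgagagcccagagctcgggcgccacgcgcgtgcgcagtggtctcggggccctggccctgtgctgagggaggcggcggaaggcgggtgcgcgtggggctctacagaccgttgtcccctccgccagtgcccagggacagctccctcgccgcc

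The *Aqp8* window held 1 match, which begins 6 bases before the start. The *Aqp1* and *Aqp11* windows held 0, which says only that these letters are not in these windows. The *Aqp1* window ends at 55336348, before the GENCODE locus of *Aqp1* begins (55336432). Its values are therefore not those of the GENCODE start. The G and C content was 52.0% for *Aqp8*, 62.7% for *Aqp1* and 68.0% for *Aqp11*, against a median of 52.7% over all windows. Windows were found for 8 of the 9 members, all but *Aqp4*.

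The members ranged from abundant genes to genes with hardly a count. On the RPKM scale, which divides CPM by gene length and so allows levels to be compared between genes, the order of the medians over 12 mice was *Aqp8* (185), *Aqp1* (48.9), *Aqp11* (18.96), *Aqp4* (9.05), *Aqp7* (0.256), *Aqp3* (0.0998) and *Aqp9* (0.0808), with *Aqp5* and *Aqp2* at 0. The step from *Aqp1* to *Aqp11* and the step from *Aqp4* to *Aqp7* held within all 12 mice. *Aqp8* was above *Aqp1* in 10 of 12 mice, with WT mice M17_2 and M17_1 as the exceptions, and *Aqp11* was above *Aqp4* in 10 of 12, with M10_2 and M13_1 as the exceptions. *Aqp7* was above *Aqp3* in 10 of 12 mice. The neighbours *Aqp3* and *Aqp9* overlapped, with *Aqp3* the higher in 8 of 12 mice.

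*Aqp8*, a channel of the colonic epithelium that passes water and hydrogen peroxide, made up the larger part of the family's transcripts in most mice. It took between 41.2% and 83.8% of the summed aquaporin RPKM in 11 mice and 3.75% in WT mouse M17_1. In M17_1, *Aqp1* took 55.9%, *Aqp11* 23.7% and *Aqp4* 16.05%, and the sum itself was 81.1 RPKM against 171 to 430 RPKM in the 11 others. *Aqp4* took 23.2% in M10_2 and 6.78% in M13_1. These are shares of a sum over 9 genes, so a low *Aqp8* raises the shares of the rest.

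**Figure D1:**
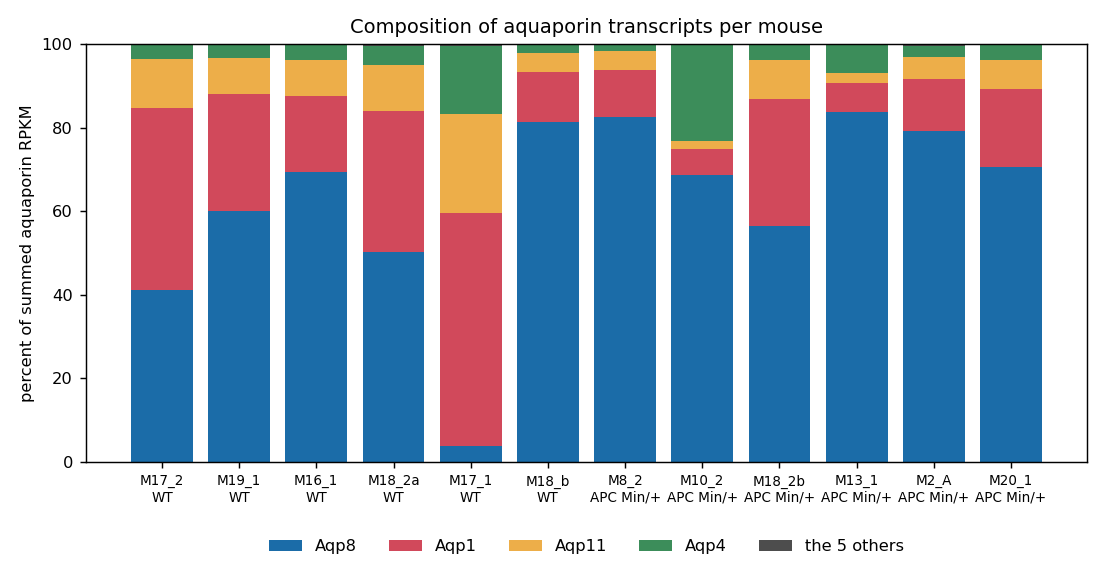
Percent of the summed RPKM of the 9 aquaporins taken by each member, with 1 bar per mouse (WT on the left, APC Min/+ on the right). *Aqp8* fills the largest part of most bars, M17_1 has 3.75% of it, and M10_2 has 23.2% of *Aqp4*.

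Between genotypes, 0 of the 7 aquaporins that passed the filter on low counts were called by edgeR's quasi-likelihood test at an FDR under 0.05 with a 2-fold change. The same held for all genes, with 0 of 20311 (0.0%) called and a lowest FDR of 0.908. The study itself did report genes at these cutoffs with edgeR, among them *Atp12a* and *Hoxb13* but no aquaporin. It does not state which test of edgeR it used. DESeq2 called 27 genes and edgeR's likelihood ratio test 15, and no aquaporin was among them. At an unadjusted p under 0.05, 1 of the 7 aquaporins differed (*Aqp4*), against 1071 genes or 5.27% of all tested. The fitted mean was higher in APC Min/+ mice for 4 members and lower for 3, with a median log2 fold change of 0.04 against -0.01 over all genes tested. Genotypes overlapped for all 7 members, and they did not overlap for 0.118% of all genes. Exact permutation p-values below are two-sided, over the 924 ways to assign 6 of 12 mice, with 0.0022 as the smallest that this design allows, and are not adjusted over the members.

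*Aqp8* (ENSMUSG00000030762.5, chromosome 7, 123462291 to 123468004, GRCm38) was the most abundant member and among the most variable. It lay between 181 and 546 CPM with a median of 441.5 in APC Min/+ mice, and between 4.80 and 552 CPM with a median of 176 in WT mice. The genotypes overlapped over most of their range, since the highest value of all was that of a WT mouse, M18_b. The log2 fold change was 0.88 with a standard error of 0.67 (FDR = 0.910), and the exact permutation test on log2 values gave p = 0.0628. M17_1, at 521 counts, was the low WT mouse. Without it the log2 fold change was 0.61, and leaving out each of the 12 mice in turn gave 0.61 to 1.41.

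The library of M17_1 differed from the others in further respects besides its low *Aqp8*. Mitochondrial genes took 12.7% of its counts, against 4.35% to 8.46% in the other 11 mice. The summed epithelial markers were the lowest of the 12 at 7132 CPM, against 8011 to 12700 CPM in the others, and 4 of the 6 genes were at their lowest. Of the 5 surface colonocyte markers, *Slc26a3* was the lowest of the 12 mice in M17_1 (438 CPM against 892 to 1998 CPM) and *Guca2a* the highest (1786 CPM against 185 to 1564 CPM), and the other 3 were within the range of the others. Of the 5 small intestine markers, *Sis* was the highest (294.5 CPM against 0.995 to 142 CPM), and the other 4 were within the range of the others. Of the 6 blood endothelial markers, 4 were at their lowest. The part of these in the low *Aqp8* was not tested.

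*Aqp4* (ENSMUSG00000024411.9, chromosome 18, 15389496 to 15410982, GRCm38), a water channel of the basolateral membrane of colonic surface cells that is also known from glia, had the largest fold change of the 7. It lay between 32.96 and 480 CPM with a median of 50.4 in APC Min/+ mice, and between 30.7 and 66.2 CPM with a median of 42.6 in WT mice. M10_2 (480 CPM) and M13_1 (126 CPM) were above all others, and the other 4 APC Min/+ mice were within the WT range. The log2 fold change was 1.55 with a standard error of 0.62 (p = 0.0257, FDR = 0.908), whereas the exact permutation test on log2 values gave p = 0.253. Leaving out M10_2 reduced it to 0.42 and leaving out WT mouse M17_2 to 1.46, and in each case the unadjusted p was no longer under 0.05. Without M10_2 and M13_1 it was -0.06 with a standard error of 0.20 (exact permutation test, p = 0.881). Without these 2 mice, 0 of the 7 aquaporins had an unadjusted p under 0.05, against 1.59% of all genes tested.

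*Aqp1* (ENSMUSG00000004655.5, chromosome 6, 55336432 to 55348555, GRCm38), the water channel of endothelium and red cells, had a lower fitted mean in APC Min/+ mice. It lay between 66.4 and 162 CPM with a median of 121 in APC Min/+ mice, and between 119 and 195 CPM with a median of 147 in WT mice. M10_2 and M13_1 held the 2 lowest values, M2_A at 117 CPM was just below the lowest WT mouse, and the other 3 APC Min/+ mice lay within the WT range. The log2 fold change was -0.41 with a standard error of 0.22 (FDR = 0.908), and the exact permutation test gave p = 0.0909. Without APC Min/+ mouse M18_2b the log2 fold change was -0.55 and its unadjusted p was under 0.05 (FDR = 0.676). Without M10_2 and M13_1 it was -0.15 (exact permutation test, p = 0.3905).

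*Aqp11* (ENSMUSG00000042797.8, chromosome 7, 97724006 to 97738289, GRCm38), which resides in the endoplasmic reticulum, was the steadiest member outside M10_2 and M13_1. It lay between 9.86 and 25.1 CPM with a median of 24.5 in APC Min/+ mice, and between 24.7 and 28.8 CPM with a median of 26.1 in WT mice. The 10 mice other than M10_2 and M13_1 stayed between 24.2 and 28.8 CPM. The log2 fold change was -0.38 with a standard error of 0.22 (edgeR p = 0.106, FDR = 0.908), while the exact permutation test on log2 values gave p = 0.00866. Without M10_2 and M13_1 the log2 fold change was -0.08 with a standard error of 0.08, and the exact permutation test gave p = 0.0524. The tests thus differed on this gene, and the FDR over all genes was not passed.

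The aquaglyceroporins were low. *Aqp7* (ENSMUSG00000028427.7, chromosome 4, 41033074 to 41048139), the channel through which adipocytes release glycerol, lay between 0.131 and 3.10 CPM with a median of 0.548 in APC Min/+ mice, and between 0.262 and 1.59 CPM with a median of 0.859 in WT mice. Both the lowest value (M10_2) and the highest (M2_A) were in APC Min/+ mice, and the log2 fold change was 0.14 with a standard error of 0.64 (FDR = 0.973). Without M10_2 and M13_1 it was 0.61 with a standard error of 0.53 (exact permutation test, p = 0.529). The 5 adipocyte markers, all 5 tested, summed to 510 CPM in M2_A, the highest of the 12 mice, and to 20.08 CPM in M10_2, the lowest. They summed to 35.5 CPM in M13_1 and to between 63.0 and 510 CPM in the other 10 mice. The part of adipocyte RNA in the *Aqp7* values was not tested.

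*Aqp9* (ENSMUSG00000032204.7, chromosome 9, 71110659 to 71168682), known from hepatocytes and neutrophils, rested on 12 to 65 counts per mouse. It lay between 0.133 and 0.588 CPM with a median of 0.320 in APC Min/+ mice, and between 0.223 and 0.657 CPM with a median of 0.375 in WT mice. The fitted log2 fold change was -0.35 with a standard error of 0.39 (FDR = 0.911). It was 0.02 with a standard error of 0.32 when M10_2 and M13_1 were left out. Summed neutrophil markers were low as well, between 0.718 and 6.60 CPM. *Aqp3* (ENSMUSG00000028435.8, chromosome 4, 41092722 to 41098183), the basolateral glycerol and water channel of many epithelia, had 6 to 42 counts per mouse. It lay between 0.110 and 0.536 CPM with a median of 0.183 in APC Min/+ mice, and between 0.112 and 0.374 CPM with a median of 0.179 in WT mice. The log2 fold change of *Aqp3* was 0.04 with a standard error of 0.43 (FDR = 0.989). Neither gene separated the genotypes.

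The 2 members below the filter were barely counted. *Aqp2* (ENSMUSG00000023013.4, chromosome 15, 99579055 to 99584547), the vasopressin-regulated channel of the kidney collecting duct, had 1 count in M8_2 and none in the 11 others. *Aqp5* (ENSMUSG00000044217.10, chromosome 15, 99590782 to 99594829), the channel of secretory glands, had 3 counts in M20_1 and 2 counts in WT mouse M18_b. These values are at or under 3 counts, so no fold is given. Of the 3 other genes of the family, *Aqp6* had no count in any mouse, *Mip* had at most 2 counts in a mouse, and *Aqp12*, of the exocrine pancreas, lay between 0.0221 and 0.608 CPM with a log2 fold change of -0.66 and a standard error of 0.51 (FDR = 0.910). *Aqp12* was lowest in M13_1 (0.0221 CPM) and M10_2 (0.106 CPM), and its fold change without them is not given.

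**Figure D2:**
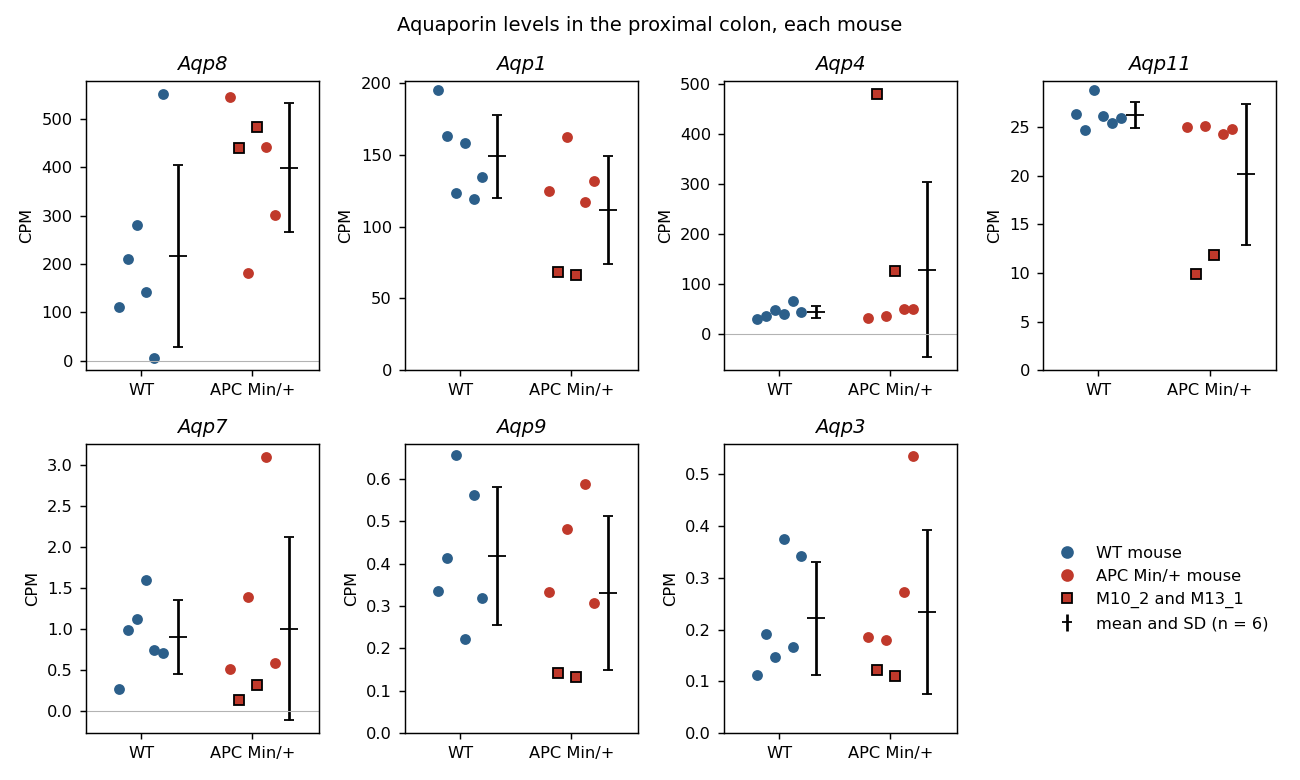
CPM of the 7 tested aquaporins in each mouse (1 point per mouse, linear axes that differ between panels), with the mean and SD of each genotype (n = 6) and M10_2 and M13_1 as squares. The squares are the 2 highest points for *Aqp4* and the 2 lowest for *Aqp1*, *Aqp9* and *Aqp11*, and the 4 other APC Min/+ mice overlap the WT mice in every panel.

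**Figure D3:**
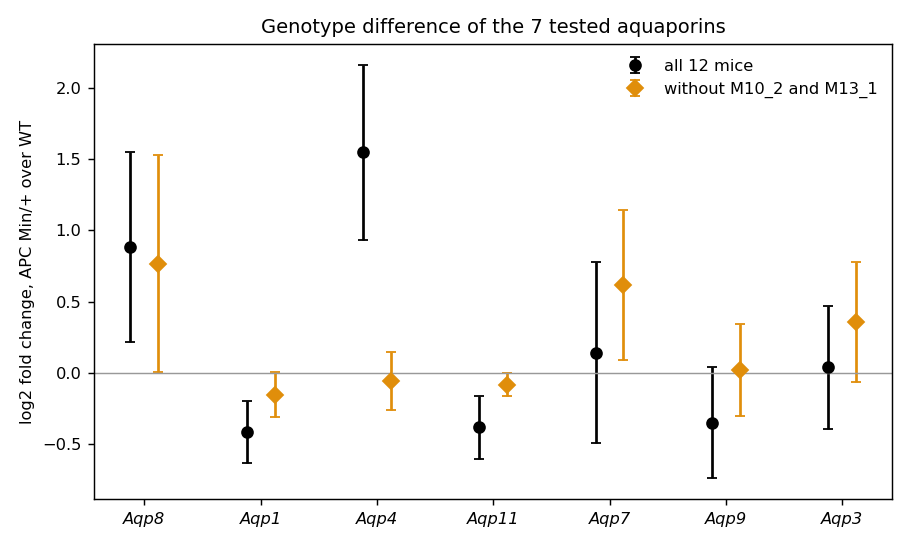
Log2 fold change of APC Min/+ over WT mice with its standard error from edgeR, for all 12 mice (circles) and for the 10 mice without M10_2 and M13_1 (diamonds). *Aqp4* moves from 1.55 to -0.06, *Aqp1* from -0.41 to -0.15 and *Aqp11* from -0.38 to -0.08, while *Aqp8* stays at 0.88 and 0.77.

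The levels in M10_2 and M13_1 were set beside those of the 10 mice with low *Hoxb13*. These mice are known by a measured gene, so the values are a description with no test. *Aqp4* was above the range of the 10 others in both mice, at 11.3 times their median in M10_2 and 2.96 times in M13_1. *Aqp4* was 1 of the 7 aquaporins, against 11.8% of all genes tested. 3 of the 7 aquaporins lay below the 10 others in both, against 12.2% of all genes tested. *Aqp1* was at 0.512 and 0.498 times the median of the others, *Aqp11* at 0.390 and 0.469 times, and *Aqp9* at 0.377 and 0.354 times. *Aqp8*, at 1.80 and 1.97 times the median, stayed inside the range of the others. *Aqp7* was below that range in M10_2 (0.131 CPM against a lowest value of 0.262 CPM) and inside it in M13_1 (0.309 CPM). *Aqp3* was inside the range in M10_2 and just below it in M13_1 (0.110 CPM against a lowest value of 0.112 CPM).

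Marker lists in M10_2 and M13_1 were read gene by gene against the 10 others. Over all genes tested, 11.8% were above the 10 others in both mice and 12.2% below, and the counts here are to be read beside these shares. Of 6 blood endothelial markers, 0 were above or below the others in both mice, and their sums were 162 and 158 CPM against 82.3 to 161 CPM. Of 4 enteric glia markers, *S100b* was below in both (2.35 and 1.97 CPM against a lowest value of 2.61 CPM), and the sums of 18.98 and 20.8 CPM were within the range of the others. Of 6 goblet cell markers, *Clca1*, *Tff3* and *Zg16* were above in both mice, while *Muc2* (1713 and 1268 CPM against 2830 to 10530 CPM) and *Spdef* (32.8 and 21.4 CPM against 53.55 to 129 CPM) were below. Of 5 surface colonocyte markers, *Car4* and *Ceacam20* were above and *Krt20* and *Guca2a* below. Of 6 epithelial markers, *Cdh1* was above and *Cdh17* below. Of 5 smooth muscle markers, *Cnn1* and *Des* were above and 0 below. *Cnn1* was at 612 and 587 CPM against 306 to 537 CPM, and *Des* at 709 and 674 CPM against 313 to 586 CPM. Between genotypes, 3 of these 5 were higher in APC Min/+ mice at an unadjusted p under 0.05, against 3.46% of all genes, and 0 passed the FDR.

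Adipocyte markers were below the range of the others in both mice for 5 of 5 genes. Over all genes tested, 12.2% were below in both and 11.8% above. Small intestine markers summed to 3.75 and 6.49 CPM against 22.9 to 314 CPM, with 2 of 5 genes below in both mice, *Sis* (0.995 and 3.03 CPM against 19.9 to 294.5 CPM) and *Apoa4* (0 in both). Of 6 squamous epithelium markers, *Krt10* alone was above in both mice (3.19 and 3.755 CPM against 1.77 to 2.69 CPM). Mitochondrial genes took 4.35% and 4.92% of the counts, the 2 lowest shares of the 12. The part of these in the aquaporin levels was not tested.

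Within the 10 mice with low *Hoxb13*, the slope of each member on log2(*Hoxb13* CPM + 0.05) was fitted with genotype as a term. Pearson's r and Spearman's rho in these mice were computed on log2 values without a genotype term. A pooled correlation over 12 mice is not given because *Hoxb13* falls into 2 clusters. No gene other than *Hoxb13* itself passed an FDR of 0.05 (0 of 19977 genes, 0.0%, lowest FDR 0.304), and 14.0% of genes had an unadjusted p under 0.05. Of the 7 aquaporins this held for 1, *Aqp4*, with a slope of -0.16 and a standard error of 0.06 (FDR = 0.305). Its Pearson's r with *Hoxb13* was -0.673 (permutation test, p = 0.0332) and its Spearman's rho -0.750 (permutation test, p = 0.0166), as 1 of 7 such relations. Without M8_2 and M19_1, the mice with the most *Hoxb13* among the 10, r was -0.532 over 8 mice, and without M8_2 alone the unadjusted p of the slope was no longer under 0.05. The count of 1 in 7 is near the share of all genes, and the slope of *Aqp4* did not pass the FDR. *Hoxb13* was below 0.75 CPM throughout these 10 mice, and 6 of them had at most 2 counts of it.

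The slopes of the other 6 members were smaller than 2 standard errors. For *Aqp1* the slope was 0.07 with a standard error of 0.05 (Pearson's r = 0.356, permutation test, p = 0.304, and Spearman's rho = 0.582, permutation test, p = 0.0832). Without M8_2 and M19_1 its r was 0.640. For *Aqp8* the slope was -0.05 with a standard error of 0.27 (r = 0.231, permutation test, p = 0.605, and rho = -0.063, permutation test, p = 0.866). For *Aqp11* the slope was -0.01 with a standard error of 0.03 (r = -0.315, permutation test, p = 0.400, and rho = -0.244, permutation test, p = 0.492). The FDR of the slope was 0.768 for *Aqp3*, 0.790 for *Aqp7* and 0.482 for *Aqp9*.

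**Figure D4:**
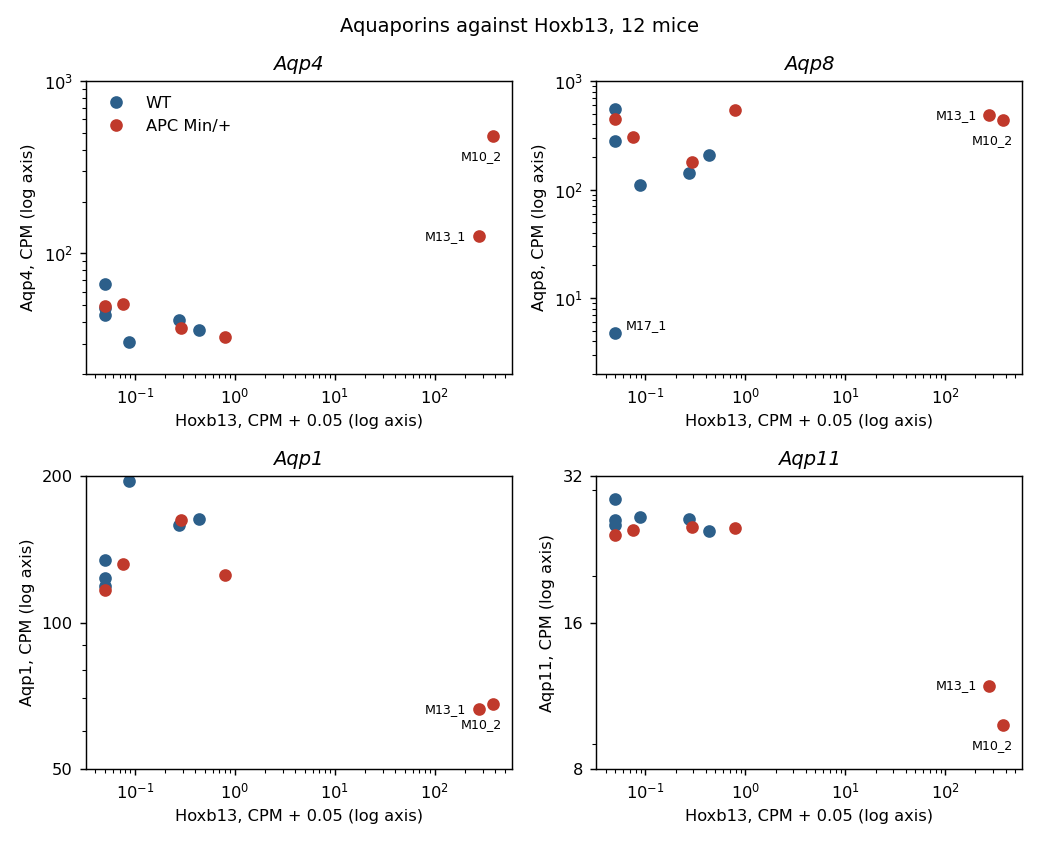
CPM of *Aqp4*, *Aqp8*, *Aqp1* and *Aqp11* against *Hoxb13* (CPM + 0.05, log axes on both sides) in 12 mice, WT in blue and APC Min/+ in red. M10_2 and M13_1 sit alone on the right, with the highest *Aqp4* and the lowest *Aqp1* and *Aqp11*, and M17_1 has the lowest *Aqp8* (4.80 CPM).

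The genes that drive or accompany aquaporin transport were read from 3 lists, none of whose members passed an FDR of 0.05. Over all genes tested, 3.46% were higher in APC Min/+ mice at an unadjusted p under 0.05 and 1.81% were lower. In the list of ion transport that water follows, 3 of 11 genes were higher in APC Min/+ mice at an unadjusted p under 0.05 and 0 were lower, and 5 of 11 were above the 10 others in both M10_2 and M13_1 and 0 below, against 11.8% and 12.2% of all genes. *Atp12a*, the colonic proton and potassium pump, was at 997 and 983 CPM in these mice and between 1.44 and 7.77 CPM in the 10 others (log2 fold change 6.29, standard error 1.62, FDR = 0.908, and 0.21 without the 2 mice). *Scnn1g*, a subunit of the epithelial sodium channel, was at 14.9 and 28.9 CPM against 0.147 to 2.84 CPM (log2 fold change 2.51, standard error 1.05, FDR = 0.908, and -0.41 without the 2 mice). The other 2 subunits, *Scnn1a* and *Scnn1b*, were also above the 10 others in both mice, at 249 and 184.5 CPM and at 27.6 and 26.0 CPM. The summed list was the lowest of the 12 in M17_1, at 2812 CPM.

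In the list of aquaporin regulation, 1 of 13 genes was higher at an unadjusted p under 0.05 and 0 were lower, against 3.46% and 1.81% of all genes. In both M10_2 and M13_1, 5 of 13 were above the 10 others and 2 below, against 11.8% and 12.2% of all genes. *Avpr1a*, a vasopressin receptor, was at 2.54 and 2.05 CPM in M10_2 and M13_1 and at 0.376 to 1.14 CPM in the 10 others (log2 fold change 0.92, standard error 0.37, FDR = 0.908, and 0.27 without the 2 mice). *Akap7*, an anchor of protein kinase A, had a log2 fold change of 0.15 with a standard error of 0.09 (FDR = 0.908, and 0.04 without the 2 mice). *Avpr2*, the receptor through which vasopressin acts on *Aqp2* in the kidney, was below the 10 others in both mice, at 0.0505 and 0.0442 CPM. These values rest on 10 and 4 counts. The other gene of this list below in both mice was *Pparg*, at 35.2 and 41.9 CPM against 126 to 204 CPM. In the list of glycerol handling, 1 of 6 genes was higher at an unadjusted p under 0.05 and 0 were lower, against 3.46% and 1.81% of all genes. In both mice, 1 of 6 was above and 2 were below the 10 others, against 11.8% and 12.2% of all genes. *Gk*, glycerol kinase, was at 132 and 216.5 CPM in M10_2 and M13_1 against 19.3 to 34.3 CPM (log2 fold change 1.49, standard error 0.57, FDR = 0.908, and -0.11 without the 2 mice). *Mgll*, which frees glycerol from monoacylglycerol, was at 41.5 and 35.9 CPM against 60.0 to 147 CPM (log2 fold change -0.29, standard error 0.34, FDR = 0.911, and 0.09 without the 2 mice).

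The genes most like each abundant member in pattern were taken as the 3 with the highest Pearson's r of log2(CPM + 0.05). Over 12 mice, the genes most like *Aqp4* were *Cyp4f16* (r = 0.978), the goblet cell lectin *Zg16* (r = 0.961) and the hormone gene *Ppy* (r = 0.959), and over the 10 mice without M10_2 and M13_1 they were *Anapc13* (r = 0.991), *Zfp963* (r = 0.989) and *Ufsp2* (r = 0.987). For *Aqp11* they were *Hkdc1* (r = 0.992), *H2-T3* (r = 0.991) and *Hoxb7* (r = 0.989) over 12 mice. Over 10 mice they were *Nit1* (r = 0.882), a gene without a symbol (ENSMUSG00000094749.1, r = 0.862) and *Zbtb3* (r = 0.814). Thus for both *Aqp4* and *Aqp11*, 0 of the 3 nearest genes were shared between 12 and 10 mice. *Anapc13*, *Zfp963* and *Ufsp2* were at their highest of the 12 mice in M17_1 (42.9, 5.32 and 62.0 CPM). M17_1 also had the most *Aqp4* of the 10 mice, and its part in these r values was not tested.

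*Aqp8* kept 1 of its 3 nearest genes. They were *Ppm1b* (r = 0.974), *Gsdmc4* (r = 0.971) and *2210016F16Rik* (r = 0.969) over 12 mice, and *Epop* (r = 0.991), the lactate and butyrate carrier *Slc16a1* (r = 0.990) and *2210016F16Rik* (r = 0.990) over 10. *Gsdmc4* was at 167 CPM in M17_1, its lowest value, and reached 1891 CPM. *Ppm1b*, *2210016F16Rik* and *Slc16a1* were also at their lowest in M17_1 (58.8, 28.85 and 144 CPM), the mouse with the lowest *Aqp8*. The part of M17_1 in these r values was not tested. *Aqp1* also kept 1 of 3, *Arnt2* (r = 0.986 over 12 mice and 0.949 over 10), with *Rnf150* (r = 0.977) and *Prkag2* (r = 0.970) beside it over 12 mice and *Rhbdl3* (r = 0.956) and *Slc38a1* (r = 0.944) over 10. All points of such a correlation share the scaling of the libraries, and high values are picked out of many genes, so they are a description.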

How the data were processed

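RNA-Seq of 12 mice was used (6 per genotype, grouped by the labels). Per the labels, STAR 2.3.0 (build GRCm38.p2) and featureCounts were used, and the raw counts of each mouse were deposited by the authors with gene lengths. Annotation release, strand and multi-mapping settings are not given in the sources used here. Symbols (37607 of 38924 genes) and loci came from GENCODE M21. The 20311 genes that reached 10 counts in 3 or more mice were fitted with edgeR 4.0.16 (TMM, factors 0.906 to 1.10, quasi-likelihood F test, Benjamini-Hochberg FDR) in R 4.3.3. The method was checked on counts simulated with the same dispersion for every gene, with changed genes altered alike in all APC Min/+ mice. That check cannot show how the test does where M10_2 and M13_1 stand apart. RPKM is TMM-scaled CPM per kilobase of the deposited length. Alternatives were RLE size factors, no filter, DESeq2 1.42.0, the likelihood ratio test, each mouse left out, M10_2 and M13_1 left out, and a pseudocount of 0.5 for Hoxb13. Pathway genes without M10_2 and M13_1 were added after seeing the data. Counts of every pair of the 12 libraries differed by more than sampling noise. All 9 members were named, with 2 genes per pathway list by smallest p and 3 genes by likeness for members with a mean of at least 1 CPM, while further genes of the pathway lists were named after their values were seen. The members and lists were chosen with earlier results of these data known. The labels map no mouse to a shipment or batch. Per the study's methods, the genotypes were kept in separate cages, so genotype and cage cannot be told apart. P-values measure the spread between mice, and floors cover counting error.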

Additional observations from a re-analysis of the deposited data

Results flagged for a closer look

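The highest or lowest mouse of each genotype was set against the other 5 by Dixon's gap test for the 7 tested aquaporins, on CPM and on log2 values. Of 28 such groups, 2 stood out, and chance alone gives about 1 in 20. *Aqp4* in M10_2 was at 480 CPM, with the other 5 APC Min/+ mice between 32.96 and 126 CPM. The gap was 0.792 of the range on the CPM scale. *Aqp8* in WT mouse M17_1 was at 4.80 CPM, with the other 5 WT mice between 111 and 552 CPM. The gap was 0.661 of the range on the log2 scale.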

How the results depend on the processing

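Counts of genes called between genotypes rose from 0 to 27 with DESeq2 and to 15 with edgeR's likelihood ratio test, and stayed at 0 with RLE size factors, without a filter, and in the fits without 1 mouse (0 to 0) or without M10_2 and M13_1. The cause was not tested. The number of aquaporins at an unadjusted p under 0.05 was 1 and ranged from 0 to 2 when 1 mouse was left out (0 without M10_2 or M17_2, 2 without M18_2b), and was 0 without M10_2 and M13_1. The number with a *Hoxb13* slope at an unadjusted p under 0.05 ranged from 0 (without M8_2) to 1. Of 119 fold changes under alternatives, 110 kept their direction and 9 reversed. *Aqp3* ran from -0.37 to 0.25 and *Aqp7* from -0.61 to 0.37 when 1 mouse was left out, and without M10_2 and M13_1 *Aqp4* was at -0.055 and *Aqp9* at 0.022. In the same fit, chosen for the pathway genes after seeing the data, *Scnn1g* was at -0.41, *Gk* at -0.11 and *Mgll* at 0.094, each of the opposite sign to the fit of 12 mice. Of 84 slopes, 77 kept their direction and 7 reversed. When 1 mouse was left out, the slope ran from -0.20 to 0.0037 for *Aqp3*, -0.21 to 0.15 for *Aqp7*, -0.26 to 0.10 for *Aqp8* and -0.016 to 0.0027 for *Aqp11*, and *Aqp8* was at 0.054 with a pseudocount of 0.5. No paired analysis was possible because the labels give no replicate numbers shared between genotypes. Depth limits *Aqp2* and *Aqp5*, and *Hoxb13* in the 10 mice with little of it.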
